A study of Homo sapiens with 9 samples.

Results

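The comparison described here set 2 libraries labelled Kv1.5 (replicates 2 and 3) against 3 Kir2.1 libraries, 5 of the 8 libraries in the count table, in all 16686 tested genes other than KCNJ2. All 5 came from MDA-MB-231, an established cell line from a triple negative breast cancer. The Kir2.1 cells had been transduced with lentivirus carrying KCNJ2(Kir2.1)-Y242F-EGFP, a potassium channel with a substitution joined to green fluorescent protein. The other cells had been transduced with a virus labelled Kv1.5-T2A-his-EGFP, so both groups had an EGFP construct, were made with the same packaging system and were sorted by fluorescence. The remaining 3 libraries, from cells with red fluorescent protein (RFP), entered the model and are given only as a reference level. The labels' protocols describe 3 biological replicates a line, without saying whether each was transduced anew. P-values here thus cover the spread among cultures of a transduced line, estimated jointly from all 8 libraries, RFP included. Replicate 1 of Kv1.5 is not analysed here.

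The inward rectifier Kir2.1, product of KCNJ2, passes potassium current near the resting potential and holds the membrane negative. Kv1.5, encoded by KCNA5, is a delayed rectifier that opens when the membrane depolarises. MDA-MB-231 cells have a mesenchymal character, with high vimentin and little E-cadherin, and secrete inflammatory cytokines and matrix proteases.

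The channel genes were read first. KCNJ2 was at 842.7, 1384 and 1189 CPM (counts scaled to a common library size) in Kir2.1 replicates 1, 2 and 3, and had 1 and 4 counts in the libraries labelled Kv1.5. KCNA5 was at 0 counts in each of the libraries labelled Kv1.5, which held 79896400 counts between them. Allowing 3 counts over their scaled library sizes gives a level of up to 0.039 CPM, for counting error only. The single KCNA5 count in the 5 libraries was in Kir2.1 replicate 1. The high KCNJ2 level therefore matched the Kir2.1 label, while the KCNA5 count did not match the other label. Whether RNA of the construct would be counted under KCNA5 is not stated, so its presence was not tested. Every direction below is drawn from libraries labelled Kv1.5 without KCNA5 counts. "Kv1.5" in what follows stands for that label. Totals of the 5 libraries ran from 30970235 to 40542749 counts. The Kv1.5 pair correlated at r = 0.978 across genes, on the log2(CPM + 0.5) scale, against 0.989 to 0.996 within Kir2.1 and 0.953 to 0.973 between the groups. Genes are not independent replicates, and these values are descriptions.

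Of 16686 tested genes, 2800 (16.8%) were called changed, with an adjusted p under 0.05 in edgeR's quasi-likelihood test. Higher levels in Kv1.5 were called for 1467 genes (8.79%) and lower levels for 1333 (7.99%). A difference of more than 2-fold was called for 1912 genes (11.5%), 1013 higher and 899 lower, and 136 and 123 genes passed 8-fold. The median log2 fold change of all tested genes was 0.0052, and the median size among called genes was 1.24. The highest and lowest values of the groups did not overlap for 7960 genes (47.7%). A lack of overlap alone was thus common in this design of 2 against 3 libraries. It held for 2794 of the 2800 called genes. Leaving out Kir2.1 replicate 1, 2 or 3 left 1858, 1383 or 1492 called genes, and leaving out Kv1.5 replicate 3 left 1483. There were 3860 without Kv1.5 replicate 2, and 2978 of these exceeded 2-fold. In the fits without a Kv1.5 library, the lone remaining one was assumed to vary like the other groups.

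**Figure D1:**
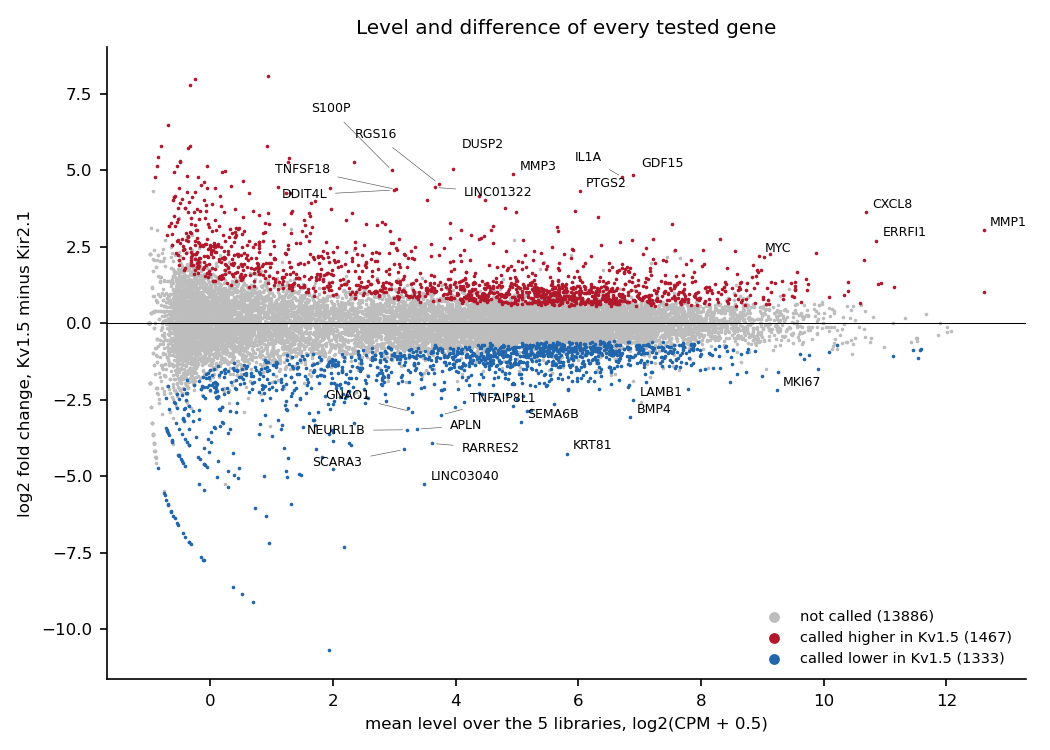
Each point is a tested gene, with its mean level over the 5 libraries, as log2(CPM + 0.5), on the x axis and its log2 fold change (Kv1.5 minus Kir2.1) on the y axis. Red points are the 1467 genes called higher in Kv1.5, blue points the 1333 called lower, and grey points were not called. Abundant genes such as MMP1 and CXCL8 stand among those called higher.

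Among called genes whose mean reached 5 CPM and whose groups did not overlap, the 10 largest rises were DUSP2, S100P, MMP3, GDF15, IL1A, RGS16, LINC01322, TNFSF18, DDIT4L and PTGS2. GDF15, a secreted stress cytokine on chromosome 19, was at 359 and 203 CPM in Kv1.5 replicates 2 and 3 and at 7.34, 11.9 and 9.96 CPM in Kir2.1 replicates 1, 2 and 3. It rose by 4.85 on the log2 scale (SE 0.35, adjusted p = 1.3e-05). Both Kv1.5 libraries stood far above all 3 Kir2.1 libraries, and the RFP mean of 11.9 CPM lay at the Kir2.1 level. S100P, a small calcium-binding protein, was at 6.78 and 28.05 CPM in Kv1.5 and between 0.446 and 0.595 CPM in Kir2.1 (log2 difference 5.001, SE 0.52, adjusted p = 0.00019). DDIT4L, related to the mTOR inhibitor DDIT4, was at 13.4 and 21.3 CPM against 0.676 to 1.00 CPM (log2 difference 4.36, SE 0.34, adjusted p = 2.45e-05). The RNA of DUSP2, a nuclear phosphatase of MAP kinases, was at 6.47 and 65.8 CPM in Kv1.5 and at 1.00, 1.05 and 1.2 CPM in Kir2.1 (log2 difference 5.05, SE 0.83, adjusted p = 0.00467), and without Kv1.5 replicate 3 its difference was 2.57. RGS16, which speeds the turning off of G proteins, was at 13.2 and 46.5 CPM against 0.949 to 1.84 CPM. LINC01322, a long noncoding RNA, was at 14.8 and 42.0 CPM against 0.743 to 2.18 CPM. For these 3 genes replicate 3 was the higher Kv1.5 library. TNFSF18, a ligand of the tumour necrosis factor family, had the opposite order, with 27.8 CPM in replicate 2 and 8.16 CPM in replicate 3, against 0.676 to 1.23 CPM in Kir2.1.

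The 10 largest falls by the same rule were LINC03040, KRT81, SCARA3, RARRES2, NEURL1B, APLN, SEMA6B, BMP4, TNFAIP8L1 and GNAO1. A fall here is a lower level in Kv1.5 than in Kir2.1, whichever of them stood apart from RFP. KRT81, a hair keratin on chromosome 12, was at 4.47 and 4.92 CPM in Kv1.5 and at 90.8, 87.5 and 90.9 CPM in Kir2.1. Its log2 fold change of -4.26 (SE 0.23, adjusted p = 1.58e-06) came with little spread in either group. BMP4, a ligand of the bone morphogenetic protein family, was at 19.97 and 22.1 CPM against 189, 207 and 135 CPM (log2 fold change -3.07, SE 0.33, adjusted p = 0.000232). SEMA6B, a transmembrane semaphorin, was at 6.44 and 4.45 CPM against 43.4, 53.2 and 57.3 CPM (log2 fold change -3.23, SE 0.26, adjusted p = 4.42e-05). For each of these 3 genes both Kv1.5 libraries lay far below the lowest Kir2.1 library. APLN, which encodes the peptide apelin, was at 1.82 and 0.974 CPM against 13.4 to 16.6 CPM. GNAO1, a G protein alpha subunit, was at 1.44 and 2.40 CPM against 11.02 to 17.8 CPM. SCARA3, a scavenger receptor, was at 1.26 and 0.290 CPM against 12.4 to 15.7 CPM, with an RFP mean of 47.0 CPM. NEURL1B, a ubiquitin ligase of the Notch pathway, was at 1.95 and 0.500 CPM against 12.8 to 15.3 CPM. TNFAIP8L1 was at 4.31 and 0.737 CPM against 16.9 to 23.5 CPM, and its log2 fold change of -2.99 was -4.76 without Kv1.5 replicate 2. RARRES2, which encodes the chemoattractant chemerin, was at 2.36 and 0.105 CPM against 12.7 to 22.3 CPM, with an RFP mean of 0.498 CPM. Its log2 fold change of -3.93 was -7.44 without Kv1.5 replicate 2, and its call was lost without Kir2.1 replicate 2. LINC03040 varied most within Kir2.1, at 5.17, 13.7 and 33.9 CPM, against 0.539 and 0.369 CPM in Kv1.5. Its RFP mean was 0.0839 CPM, and its call was lost without Kv1.5 replicate 3. For RARRES2 and LINC03040 the Kir2.1 libraries were thus the raised ones, above both RFP and Kv1.5.

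Genes of the integrated stress response and of amino acid supply were called higher more often than any other list examined. In this response, phosphorylation of the initiation factor eIF2 lowers general translation while the transcription factor ATF4 is made, and ATF4 with its partners switches on genes for amino acid synthesis, uptake and tRNA charging. Of 29 tested members, 25 were called higher and 0 lower, against 8.79% of all tested genes called higher. Their median log2 fold change was 1.80, against 0.0052 over all tested genes. ATF4 itself, the central transcription factor, was at 295 and 418 CPM in Kv1.5 and at 182, 139 and 204 CPM in Kir2.1 (log2 difference 1.03, SE 0.22, adjusted p = 0.00981), and its call was lost without Kir2.1 replicate 2 or Kv1.5 replicate 3. No other member named in these paragraphs lost its call when a library was left out, and the count over the list ran from 22 to 26.

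Among the targets, NUPR1, a stress-induced chromatin regulator, was at 42.1 and 51.4 CPM in Kv1.5 and at 2.55, 2.22 and 3.10 CPM in Kir2.1 (log2 difference 4.15, SE 0.26, adjusted p = 8.13e-06). CTH, which makes cysteine from cystathionine, was at 203 and 147 CPM against 13.2, 14.6 and 19.4 CPM (log2 difference 3.48, SE 0.23, adjusted p = 8.61e-06). CHAC1, which degrades glutathione, was at 121 and 91.6 CPM against 10.2, 8.70 and 16.8 CPM (log2 difference 3.16, SE 0.28, adjusted p = 7.59e-05). The 2 Kv1.5 libraries of each of these genes lay close together and far above every Kir2.1 library. PPP1R15A, the phosphatase subunit that reverses eIF2 phosphorylation, was at 1909 and 1694 CPM against 365, 415 and 322 CPM (log2 difference 2.29, SE 0.29, adjusted p = 0.000553). SLC38A2, a transporter of neutral amino acids, was at 745 and 1218 CPM against 153, 238 and 260 CPM (log2 difference 2.18, SE 0.27, adjusted p = 0.000533). PHGDH, the first enzyme of serine synthesis, and TRIB3, a pseudokinase that restrains ATF4, were picked after their values were seen. TRIB3 was at 377 and 229 CPM against 33.8 to 57.9 CPM (log2 difference 2.76). PHGDH was at 47.7 and 51.0 CPM against 4.24 to 7.34 CPM (log2 difference 3.04), but between 75.5 and 119 CPM in the RFP libraries. Levels of NUPR1, with an RFP mean of 19.8 CPM, and of PHGDH thus set the Kir2.1 libraries below RFP, whereas CTH and CHAC1, with RFP means of 11.7 and 11.3 CPM, were near the Kir2.1 level in RFP. The 4 tested members that were not called were SLC7A11 (log2 difference 1.76, adjusted p = 0.0595), SLC7A1 (0.71), ALDH1L2 (0.66) and ATF5 (-0.32). ASNS, asparagine synthetase, was called higher but stood at only 4.72 and 5.42 CPM in Kv1.5 and 0.485 to 1.12 CPM in Kir2.1. How the counting step treated reads shared with overlapping gene models was not given, so its level is uncertain.

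Of 20 cytosolic aminoacyl-tRNA synthetases, which load amino acids onto tRNAs, 11 (55.0%) were called higher and 1 (5.0%) lower. The shares over all tested genes were 8.79% and 7.99%, and the list's median log2 fold change was 0.61. YARS1 was at 679 and 613 CPM in Kv1.5 and at 232, 187 and 214 CPM in Kir2.1 (log2 difference 1.61, SE 0.19, adjusted p = 0.000407). SARS1 was at 761 and 730 CPM against 238 to 277 CPM (log2 difference 1.51), GARS1 at 1050 and 731 CPM against 316 to 374 CPM (1.36), and NARS1 at 388 and 416 CPM against 174 to 192 CPM (1.16). The enzymes named here load tyrosine, serine, glycine and asparagine. QARS1, the glutamine enzyme, was lower, at 131 and 73.7 CPM against 203 to 237 CPM (log2 fold change -1.08, adjusted p = 0.0119), a call lost without Kv1.5 replicate 3. TARS1, the threonine enzyme, was at 717 and 664 CPM against 514 to 553 CPM and was not called (log2 difference 0.37, adjusted p = 0.181). Without Kir2.1 replicate 2, 7 members were called higher.

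The ATF4 element, searched as TGATGNAA on both strands in the 250 bases before the first RefSeq transcription start of a gene, is the sequence that ATF4 binds with its partners in some target promoters. It was found in 1.47% of the 11676 tested genes with a promoter in the table, in 2.78% of those called higher and in 1.66% of those called lower. In the stress response list 2 of 23 promoters held it (ASNS and CHAC1), and in the synthetase list 2 of 16 (AARS1 and IARS1). Both lists were chosen as genes of the kinds that ATF4 switches on, so their shares follow in part from that choice. A match describes letters and is not a binding site, and elements outside this window were not searched. The stretch before CHAC1 (GRCh38.p14, chr15:40953221-40953314, plus strand) and that before AARS1, the alanine enzyme (chr16:70289641-70289738, minus strand), are printed 5′ to 3′ on the gene's strand with the element in capitals, here on the opposite strand. AARS1 was at 471 and 332 CPM in Kv1.5 against 187 to 199 CPM in Kir2.1 (log2 difference 1.07, SE 0.20, adjusted p = 0.00516).
CHAC1: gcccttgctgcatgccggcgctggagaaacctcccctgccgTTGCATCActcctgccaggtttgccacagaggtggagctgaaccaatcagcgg
AARS1: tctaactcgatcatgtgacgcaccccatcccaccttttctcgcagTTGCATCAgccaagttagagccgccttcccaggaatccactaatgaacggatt

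Genes of the unfolded protein response of the endoplasmic reticulum (ER) moved less as a group. This response raises ER chaperones through the sensors IRE1, encoded by ERN1, ATF6 and PERK. Of 24 tested members, 5 (20.8%) were called higher and 1 (4.17%) lower, against 8.79% and 7.99% of all tested genes. The median log2 fold change was 0.48. ERN1 was at 141 and 77.3 CPM in Kv1.5 and at 22.5, 29.5 and 23.2 CPM in Kir2.1 (log2 difference 2.12, SE 0.25, adjusted p = 0.000391). XBP1, whose RNA is spliced by IRE1, was at 271 and 278 CPM against 62.6 to 81.9 CPM (log2 difference 1.96, SE 0.19, adjusted p = 0.000129), and HERPUD1, of the ER degradation machinery, was at 127 and 139 CPM against 35.4 to 67.1 CPM (1.51). These 3 regulators had similar levels in both Kv1.5 libraries or were higher in replicate 2. The chaperones differed between the Kv1.5 libraries: HSP90B1 was at 1660 CPM in replicate 2 and 4194 CPM in replicate 3, against 1079, 1171 and 1370 CPM in Kir2.1 (log2 difference 1.28, adjusted p = 0.0255). HSPA5, which encodes the chaperone BiP, was at 1134 and 3110 CPM against 680, 705 and 1106 CPM (log2 difference 1.35, adjusted p = 0.0213), and both calls were lost without Kv1.5 replicate 3 (0.46 and 0.45) or without Kir2.1 replicate 1 or 2, and that of HSP90B1 also without Kir2.1 replicate 3. CALR, calreticulin, was at 1866 and 2033 CPM against 1512 to 1777 CPM and was not called (log2 difference 0.21, adjusted p = 0.5). DERL3, of the ER degradation pathway, was lower, at 0.180 and 0.527 CPM against 0.776 to 1.90 CPM (log2 fold change -1.95, adjusted p = 0.0375). That call was lost when RFP replicate 2, Kir2.1 replicate 2 or 3, or Kv1.5 replicate 2 was left out. Without Kv1.5 replicate 2, 13 members of the list were called higher, and without Kir2.1 replicate 1, Kir2.1 replicate 2 or Kv1.5 replicate 3 there were 3.

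Inflammatory cytokines and targets of NF-kB, the transcription factor that interleukin 1 and tumour necrosis factor activate, were called higher in 15 of 27 tested members (55.6%) and lower in 0, against 8.79% and 7.99% of all tested genes, with a median log2 fold change of 1.55. IL1A, an alarmin and ligand of the interleukin 1 receptor, was at 298 and 200 CPM in Kv1.5 and at 7.89, 12.9 and 6.39 CPM in Kir2.1 (log2 difference 4.78, SE 0.34, adjusted p = 1.3e-05). IL1B, another ligand of that receptor, was at 151 and 124 CPM against 6.56, 17.1 and 8.51 CPM (log2 difference 3.68, SE 0.87, adjusted p = 0.0291), with an RFP mean of 84.7 CPM. CXCL8, a chemokine that draws neutrophils, was at 3675 and 3736 CPM against 122, 217 and 560 CPM (log2 difference 3.63, SE 0.78, adjusted p = 0.0169). The groups did not overlap for any of these genes, as for nearly all called genes, and CXCL8 ranged most within Kir2.1. PTGS2, the inducible cyclooxygenase, was at 127 and 174 CPM against 4.59, 9.89 and 7.95 CPM (log2 difference 4.33, SE 0.54, adjusted p = 0.00112). ICAM1, an adhesion molecule for leukocytes, was at 1006 and 569 CPM against 224, 264 and 317 CPM (log2 difference 1.55, SE 0.34, adjusted p = 0.0105). SOD2, the mitochondrial superoxide dismutase, was at 745 and 459 CPM against 118 to 201 CPM (log2 difference 1.80, adjusted p = 0.00193). CSF2, the growth factor of granulocytes and macrophages, was at 511 and 792 CPM against 77.6 to 109 CPM (log2 difference 2.77, adjusted p = 0.0189). SOD2 and CSF2 were picked after their values were seen. IL6 was at 425 and 100 CPM against 46.4 to 92.8 CPM (adjusted p = 0.18) and CXCL1 at 545 and 106 CPM against 69.0 to 79.5 CPM (adjusted p = 0.164), and neither was called. The lowest members were CCL2 and TNFAIP2, with log2 fold changes of -0.83 and -0.75 that were not called. Leaving out Kv1.5 replicate 2 left 9 called members. The call of IL1B was lost without Kir2.1 replicate 2 or 3 or either Kv1.5 library, that of CXCL8 without Kir2.1 replicate 2 or either Kv1.5 library, that of CSF2 without Kir2.1 replicate 2 or 3 or either Kv1.5 library, and that of ICAM1 without Kir2.1 replicate 1 or Kv1.5 replicate 2.

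**Figure D2:**
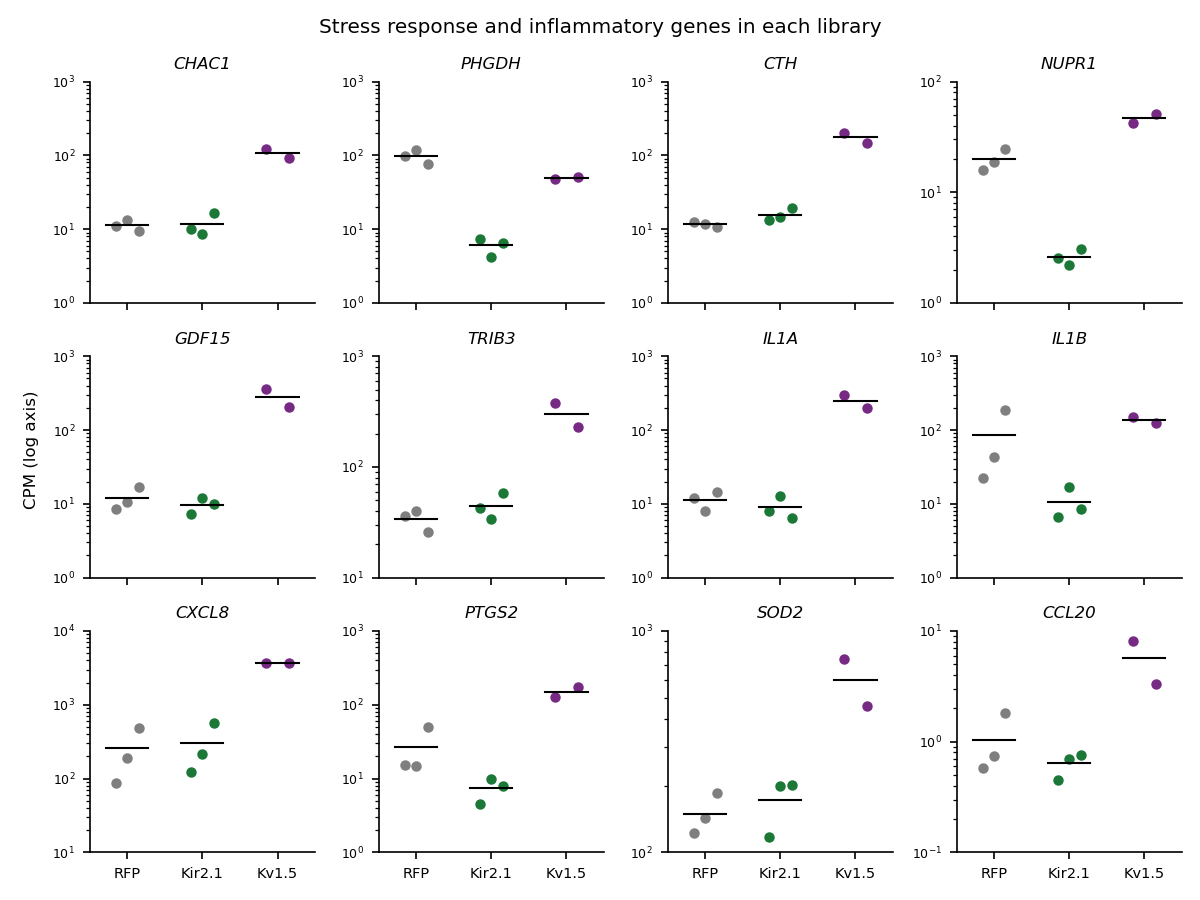
Points are the CPM of each library on a log axis (RFP n = 3, Kir2.1 n = 3, Kv1.5 n = 2, with replicates 2 and 3 from left to right) and lines are group means, for 6 stress response genes and 6 inflammatory genes. Both Kv1.5 points stand above all 3 Kir2.1 points in every panel. All genes shown were called, and 2794 of the 2800 called genes did not overlap, so this separation follows from their choice. RFP points reach the Kv1.5 range or pass it for IL1B and PHGDH.

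Promoters of the inflammatory list held NF-kB sites, searched as 3 G, any 2 bases, then 3 T and 2 C or 2 T and 3 C, in 10 of 23 cases, against 4.27% of all tested genes with a promoter. The members were BIRC3, CCL20, CXCL1, CXCL2, CXCL3, IL32, IL6, NFKB1, NFKBIA and TNFAIP3, of which CCL20, CXCL2, CXCL3, IL32 and TNFAIP3 were called higher. The list was chosen in part as NF-kB targets, so its share follows from that choice and does not bear on the change. Over all genes called higher the share was 3.44%, and over those called lower 3.90%. AP-1 elements (TGANTCA), bound by FOS and JUN proteins, were in 3 of the 23 promoters (CXCL8, IL11 and IL1A), in 4.25% of all, in 5.45% of those called higher and in 4.39% of those called lower. NF-kB sites can share bases with the E2F letters searched below. CXCL2 (chr4:74099219-74099318, minus strand) and CCL20 (chr2:227813717-227813817, plus strand) are shown with the NF-kB letters in capitals, those of CCL20 being 2 overlapping matches on the opposite strand. IL1A (chr2:112784494-112784550, minus strand) and CXCL8 (chr4:73740387-73740483, plus strand) are shown with the AP-1 letters in capitals, all on GRCh38.p14.
CXCL2: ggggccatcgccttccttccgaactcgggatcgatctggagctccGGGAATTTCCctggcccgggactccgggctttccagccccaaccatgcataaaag
CCL20: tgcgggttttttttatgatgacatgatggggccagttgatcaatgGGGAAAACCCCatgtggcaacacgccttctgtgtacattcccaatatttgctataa
IL1A: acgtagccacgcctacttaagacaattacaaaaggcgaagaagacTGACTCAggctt
CXCL8: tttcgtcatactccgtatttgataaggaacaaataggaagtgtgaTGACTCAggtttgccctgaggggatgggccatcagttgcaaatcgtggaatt
CXCL2, a chemokine nearly identical to CXCL1 and CXCL3 so that reads may be split among them, was at 297 and 179 CPM in Kv1.5 against 17.9, 30.9 and 60.0 CPM in Kir2.1 (log2 difference 2.71, SE 0.42, adjusted p = 0.00223). CCL20, a chemokine of dendritic and T cells, was at 8.04 and 3.32 CPM against 0.453 to 0.753 CPM (log2 difference 3.14, SE 0.52, adjusted p = 0.00249).

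Signalling to the nucleus through ERK was read from its output and feedback genes, which include the phosphatases of the DUSP family and the SPRY inhibitors. Of 20 tested members, 8 (40.0%) were called higher and 0 lower, against 8.79% and 7.99% of all tested genes. The median log2 fold change was 0.46. MYC, the growth-promoting transcription factor, was at 652 and 1197 CPM in Kv1.5 and at 176, 203 and 229 CPM in Kir2.1 (log2 difference 2.19, SE 0.27, adjusted p = 0.00049). PHLDA1 was at 3067 and 2864 CPM against 680 to 751 CPM (log2 difference 2.06, SE 0.21, adjusted p = 0.000166). IER3, an early response gene, was at 3433 and 2675 CPM against 1101 to 1310 CPM (1.33). DUSP6, the cytoplasmic phosphatase of ERK, was at 964 and 887 CPM against 261, 399 and 455 CPM (log2 difference 1.32, SE 0.28, adjusted p = 0.0083). None of these 4 lost its call when a library was left out. The other 4 called members were SPRY2, DUSP5, SPRY4 and EPHA2. Members that were not called included FOSL1 (-0.05), ETV4 (-0.19) and CCND1 (-0.54).

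Immediate early genes are transcribed within minutes of a stimulus without new protein. Of 25 members, 10 (40.0%) were called higher and 0 lower, against 8.79% and 7.99% of all tested genes, with a median of 0.85. JUNB, an AP-1 subunit, was at 285 and 453 CPM in Kv1.5 and at 61.7, 75.1 and 73.3 CPM in Kir2.1 (log2 difference 2.40, SE 0.22, adjusted p = 9.71e-05). ATF3, a stress-induced repressor, was at 56.7 and 80.6 CPM against 6.08 to 14.1 CPM (log2 difference 2.72, adjusted p = 0.00692). CCN1, a matricellular protein, was at 2773 and 4028 CPM against 1249 to 1812 CPM (log2 difference 1.18, adjusted p = 0.0105). The zinc finger factor EGR3 and the nuclear receptor NR4A1 were at 1.21 and 2.13 CPM in Kv1.5 replicate 2 and at 3.21 and 7.95 CPM in replicate 3, against 0.162 to 0.784 CPM and 0.614 to 1.73 CPM in Kir2.1 (log2 differences 2.14 and 2.098). CCN2 was at 754 and 708 CPM against 353 to 555 CPM and was not called (0.78, adjusted p = 0.15). EGR1 and FOS spread widely within Kir2.1, with 11.96 and 12.2 CPM in replicate 1 against 97.0 to 103 and 134 to 180 CPM in the others, and were not called. Leaving out Kv1.5 replicate 3 left 3 called members, the differences of EGR3 and NR4A1 were 1.26 and 0.85, and the calls of ATF3, EGR3, NR4A1 and CCN1 were lost. Those of EGR3 and NR4A1 were also lost without Kir2.1 replicate 1, EGR3 without Kir2.1 replicate 3 and NR4A1 without Kir2.1 replicate 2.

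Of 11 tested ligands, receptors and regulators of the EGF receptor family, 3 (27.3%) were called higher, against 8.79% of all tested genes. Among the ligands, AREG, amphiregulin, was at 200 and 72.7 CPM in Kv1.5 against 42.9 to 65.0 CPM in Kir2.1 (log2 difference 1.32, adjusted p = 0.0224), and NRG1, neuregulin 1, was at 201 and 111 CPM against 64.3 to 78.7 CPM (1.12, adjusted p = 0.0102). Both calls were lost without Kv1.5 replicate 2 (0.41 and 0.63), leaving 1 called member, and AREG was also lost without Kir2.1 replicate 1 or 2. The receptor EGFR was at 606 and 478 CPM against 261, 401 and 392 CPM and was not called (0.63, adjusted p = 0.127). ERRFI1, which inhibits the receptor's kinase and is induced by its signalling, was at 4196 and 3342 CPM against 440, 622 and 673 CPM (log2 difference 2.70, SE 0.23, adjusted p = 5.54e-05), with both Kv1.5 libraries far above every Kir2.1 library.

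Genes of DNA replication were lower. These genes, among them the MCM helicase subunits, are transcribed by E2F factors as cells enter S phase. All 30 tested members had a negative log2 fold change, 22 were called lower and 0 higher, against 7.99% of all tested genes called lower, and the median was -0.95. The level of E2F2, a transcription factor of the family, was 1.98 and 1.53 CPM in Kv1.5 and 9.70, 10.97 and 9.77 CPM in Kir2.1 (log2 fold change -2.53, SE 0.28, adjusted p = 0.000306). MCM5 was at 33.9 and 32.1 CPM against 136, 118 and 140 CPM (-1.99, SE 0.20, adjusted p = 0.000176). UHRF1, which carries DNA methylation through replication, was at 15.04 and 27.0 CPM against 64.8 to 81.5 CPM (-1.82, adjusted p = 0.00175). CHAF1A, a histone chaperone of the replication fork, was at 36.9 and 41.5 CPM against 101 to 119 CPM (-1.51, adjusted p = 0.000746). The most abundant members were MCM3, at 208 and 345 CPM against 495 to 566 CPM (-0.95, adjusted p = 0.017), and MCM7, at 222 and 284 CPM against 480 to 546 CPM (-0.99, adjusted p = 0.00954). The call of MCM3 was lost without Kir2.1 replicate 3 or without Kv1.5 replicate 2, where its value was -0.63. For 19 of 30 members Kv1.5 replicate 3 was above replicate 2, and the medians of the 2 libraries against the Kir2.1 mean were -1.16 for replicate 2 and -0.90 for replicate 3 on the log2(CPM + 0.5) scale. The count of called members was 12 without Kir2.1 replicate 2 and 14 without Kir2.1 replicate 3.

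Genes of mitosis had a similar median but differed between the Kv1.5 libraries. All 28 tested members had negative log2 fold changes, with a median of -1.05. Yet 5 (17.9%) were called lower and 0 higher, against 7.99% and 8.79% of all tested genes. The 5 were MKI67, BIRC5, CCNA2, CDC20 and BUB1B. MKI67, the proliferation marker Ki-67, was at 319 CPM in Kv1.5 replicate 2 and 67.7 CPM in replicate 3, against 672, 1001 and 954 CPM in Kir2.1 (log2 fold change -2.18, SE 0.53, adjusted p = 0.0214). BIRC5, survivin, was at 104 and 29.3 CPM against 148 to 206 CPM (-1.42, adjusted p = 0.0364). CCNA2, cyclin A, was at 115 and 38.8 CPM against 163 to 205 CPM (-1.23, adjusted p = 0.0376), and CDC20, an activator of the anaphase-promoting complex, at 241 and 112 CPM against 306 to 460 CPM (-1.04, adjusted p = 0.0479). BUB1B, of the spindle checkpoint, was at 70.3 and 43.9 CPM against 94.3 to 127 CPM (-0.99, adjusted p = 0.0171). In each case replicate 2 was below Kir2.1 and replicate 3 was lower still. TOP2A, the topoisomerase of mitotic chromosomes, had the same order, with 411 and 98.9 CPM against 603 to 791 CPM, and was not called (-1.49, adjusted p = 0.0534). For 0 of 28 members was replicate 3 above replicate 2, and the medians against Kir2.1 were -0.47 in replicate 2 and -2.15 in replicate 3. Without Kv1.5 replicate 2, 25 members were called lower, with values of -3.69 for MKI67, -2.61 for BIRC5, -2.21 for CCNA2 and -1.70 for CDC20. Without Kir2.1 replicate 2 or 3 there were 0 calls by edgeR, without Kir2.1 replicate 1 or RFP replicate 2 there were 2, and without Kv1.5 replicate 3 there were 3, with -0.79 for BIRC5, -0.65 for CCNA2 and -0.60 for CDC20, which were not called there, nor was BUB1B. DESeq2, limma voom and edgeR without a filter called 15, 17 and 20.

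**Figure D3:**
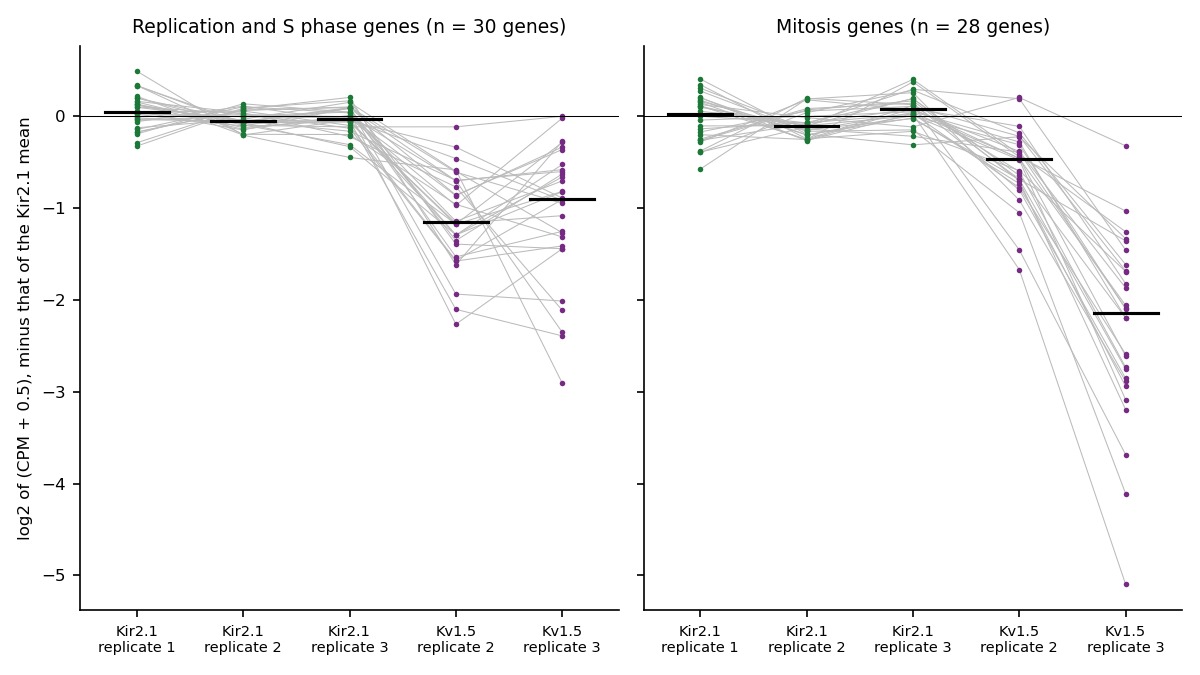
Each point is a gene in 1 library, as log2(CPM + 0.5) minus that of the Kir2.1 mean, for 30 replication genes on the left and 28 mitosis genes on the right, with grey lines joining a gene's values and black bars at library medians. The replication medians of Kv1.5 replicates 2 and 3 are -1.16 and -0.90, while the mitosis medians are -0.47 and -2.15.

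E2F elements, searched as TTTCCCGC and TTTGGCGC, were in 13 of 26 promoters of the replication list, against 3.05% of all tested genes, 4.48% of those called lower and 2.11% of those called higher. The CHR element (TTTGAA), through which cell cycle genes are repressed in resting cells, was in 13 of 23 promoters of the mitosis list, against 8.66% of all, 9.55% of those called lower and 9.38% of those called higher. A CHR element was in 1 of 26 replication promoters, that of RRM1, and an E2F element in 1 of 23 mitosis promoters, that of NUSAP1. Both lists hold genes of the kind known to be regulated through these elements. Their shares follow from that choice and do not bear on the change. MCM6 (chr2:135876481-135876640, minus strand), UHRF1 (chr19:4909442-4909500, plus strand) and E2F2 (chr1:23531234-23531320, minus strand) are shown with the E2F letters in capitals. MKI67 (chr10:128126424-128126515, minus strand) and CDC20 (chr1:43358871-43358966, plus strand) are shown with the CHR letters in capitals, all on GRCh38.p14.
MCM6: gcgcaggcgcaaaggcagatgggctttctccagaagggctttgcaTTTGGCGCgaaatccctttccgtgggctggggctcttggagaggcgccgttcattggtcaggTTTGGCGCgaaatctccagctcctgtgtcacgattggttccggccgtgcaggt
UHRF1: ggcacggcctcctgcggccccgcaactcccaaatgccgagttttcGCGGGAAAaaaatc
E2F2: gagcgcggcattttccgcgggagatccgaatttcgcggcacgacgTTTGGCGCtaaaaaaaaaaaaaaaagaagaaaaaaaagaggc
MKI67: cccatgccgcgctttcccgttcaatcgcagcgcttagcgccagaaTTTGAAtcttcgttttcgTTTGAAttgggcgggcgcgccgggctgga
CDC20: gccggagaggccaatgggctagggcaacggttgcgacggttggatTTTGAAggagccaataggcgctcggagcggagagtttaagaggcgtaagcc
MCM6, a subunit of the helicase, was at 45.1 and 54.8 CPM in Kv1.5 against 126 to 139 CPM in Kir2.1 (-1.40, SE 0.19, adjusted p = 0.000875).

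Of 19 inhibitors of cyclin-dependent kinases and p53 target genes, 5 (26.3%) were called higher and 1 (5.26%) lower. All tested genes had shares of 8.79% and 7.99%. GADD45A, a stress-induced inhibitor of growth, was at 349 and 191 CPM in Kv1.5 and at 47.3, 42.0 and 59.1 CPM in Kir2.1 (log2 difference 2.45, SE 0.32, adjusted p = 0.000692). BTG1, an antiproliferative gene, was at 295 and 207 CPM against 69.1 to 74.5 CPM (1.81, adjusted p = 0.000256). BBC3, which encodes the cell death protein PUMA, was at 32.5 and 17.8 CPM against 6.85 to 8.57 CPM (1.72, adjusted p = 0.00451). CDKN1A, which encodes the inhibitor p21, was at 411 and 277 CPM against 152 to 190 CPM (1.00, SE 0.21, adjusted p = 0.00846). TP53I3, the fifth of those called higher, had a difference of 0.65 and lost its call without RFP replicate 1 or 2, Kir2.1 replicate 2 or 3, or either Kv1.5 library. PLK2 was at 521 and 373 CPM against 335 to 422 CPM and was not called (0.24, adjusted p = 0.575). CDKN2C, an inhibitor of CDK4 and CDK6 that E2F factors induce, was lower, at 16.7 and 6.43 CPM against 64.1 to 78.5 CPM (-2.64, SE 0.36, adjusted p = 0.000807). The RNA of replication-dependent histone genes is not polyadenylated in dividing cells, and a poly(A) library captures it poorly. Of 18 tested members, 4 (22.2%) were called higher, H2AC6, H2BC21, H2BC15 and H2BC5. H2AC6 was at 97.3 and 42.8 CPM against 13.1 to 18.4 CPM (2.08, adjusted p = 0.00117), and at 1.37 without Kv1.5 replicate 2. H2BC21 was at 5.44 and 7.74 CPM against 1.65 to 2.20 CPM (1.83, adjusted p = 0.00255), H2BC15 at 2.67 and 3.27 CPM against 1.2 to 1.27 CPM (1.26, adjusted p = 0.0199) and H2BC5 at 41.9 and 27.0 CPM against 9.52 to 19.9 CPM (1.17, adjusted p = 0.0247). H1-2 was not called (1.19, adjusted p = 0.0843). Histone copies are alike, so reads may be split among them. Leaving out Kir2.1 replicate 2 or 3 left 2 histone calls, and H2BC15 was also lost without Kir2.1 replicate 1 or Kv1.5 replicate 3 and H2BC5 without Kv1.5 replicate 2.

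Genes of cholesterol synthesis and uptake, which the factor SREBP-2 induces when sterols are low, had negative log2 fold changes for 24 of 25 members. The median was -0.96, and 8 members (32.0%) were called lower and 0 higher, against 7.99% and 8.79% of all tested genes. EBP, a sterol isomerase, was at 24.6 and 14.7 CPM in Kv1.5 and at 73.2, 56.6 and 61.0 CPM in Kir2.1 (-1.69, SE 0.25, adjusted p = 0.00125). DHCR7, which makes cholesterol from its last precursor, was at 53.9 and 88.1 CPM against 107, 168 and 257 CPM (-1.32, adjusted p = 0.0197), and FDFT1, squalene synthase, at 90.7 and 79.9 CPM against 150, 193 and 289 CPM (-1.31, adjusted p = 0.0124). For DHCR7 and FDFT1 replicate 3 was the highest Kir2.1 library and replicate 1 the lowest. Without Kir2.1 replicate 3 or Kv1.5 replicate 3 there were 4 calls in the list, and without Kir2.1 replicate 1 there were 13. The call of DHCR7 was lost without Kir2.1 replicate 3 or Kv1.5 replicate 2 and that of FDFT1 without Kv1.5 replicate 3.

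Of 30 tested genes of glycolysis and hypoxia, 7 (23.3%) were called lower and 1 (3.33%) higher, with a median of -0.45. Among all tested genes, 7.99% were called lower and 8.79% higher. PKM, pyruvate kinase, was at 2011 and 1476 CPM in Kv1.5 and at 4068, 3672 and 3598 CPM in Kir2.1 (-1.12, SE 0.22, adjusted p = 0.00614). PFKFB4, which controls the rate of glycolysis, was at 4.36 and 8.03 CPM against 23.7 to 36.5 CPM (-2.27, adjusted p = 0.00295). EGLN3, an oxygen sensor, was at 2.21 and 2.45 CPM against 6.95 to 9.32 CPM (-1.87, adjusted p = 0.0119), and ENO2, an enolase, at 75.2 and 57.6 CPM against 129 to 151 CPM (-1.07, adjusted p = 0.0133). ENO1, the major enolase, was at 3644 and 4008 CPM against 3547 to 3973 CPM (0.01, adjusted p = 0.981). ADM, adrenomedullin, was higher, at 65.9 and 93.4 CPM against 30.2 to 44.0 CPM (1.04, adjusted p = 0.0217), a call lost without Kir2.1 replicate 1 or 3 or Kv1.5 replicate 3. There were 3 lower calls without Kv1.5 replicate 3, and EGLN3 and ENO2 were not among them. All 13 mitochondrially encoded proteins had negative values, with a median of -0.50. MT-CO3 alone was called, at 2194 and 2014 CPM against 3354 to 4220 CPM (-0.82, adjusted p = 0.0467). Its call was lost without RFP replicate 2 or any 1 of the 5 libraries. MT-CO1 (-0.12) and MT-ND4 (-0.29), the most abundant, were not called. Cytosolic ribosomal protein genes were called higher for 3 of 60 members (5.0%, against 8.79% of all tested genes), RPS27, RPL31 and RPL10A, with a median of 0.29. RPL31 was at 653 and 1602 CPM against 378 to 555 CPM (1.23, adjusted p = 0.0266), RPL10A at 639 and 762.4 CPM against 327 to 474 CPM (0.85, adjusted p = 0.0213) and RPS27 at 8.42 and 13.5 CPM against 3.51 to 5.04 CPM (1.31, adjusted p = 0.0102). RPL8 (0.58) and RPS4X (-0.19), the most abundant, were not called. For 58 of the 60 genes Kv1.5 replicate 3 was above replicate 2. Without Kv1.5 replicate 2, 19 members were called, without Kir2.1 replicate 2 or Kv1.5 replicate 3 there were 0 by edgeR, and without Kir2.1 replicate 3 there was 1. RPL31 was at 0.44 without Kv1.5 replicate 3 and was lost without any Kir2.1 library. These genes have many near-identical copies, and their levels are uncertain.

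Of 32 tested matrix proteases and inhibitors, 7 (21.9%) were called higher and 3 (9.38%) lower, against 8.79% and 7.99% of all tested genes. The lower share was thus near that of all tested genes, and the median was -0.01. MMP1, interstitial collagenase, was the most abundant gene of Kv1.5 replicate 3, with 1.821% of its counts. It was at 7050 and 19440 CPM in Kv1.5 and at 1643, 2400 and 788 CPM in Kir2.1 (log2 difference 3.04, SE 0.47, adjusted p = 0.00212), with an RFP mean of 7.52 CPM. MMP3, stromelysin 1, was at 35.1 and 108 CPM against 1.42, 5.08 and 0.726 CPM (log2 difference 4.89, SE 1.13, adjusted p = 0.0291), and MMP10, stromelysin 2, was at 1.28 and 3.63 CPM against 0.0970 to 0.140 CPM (4.26, SE 0.54, adjusted p = 0.000584). These 3 genes lie in 1 cluster on chromosome 11, and replicate 3 was the higher Kv1.5 library for each. The other members called higher were ADAMTS1 (2.67), SERPINE2 (1.23), ADAM17 (1.14) and PLAT (1.09), which encode an aggrecanase, a protease inhibitor, the sheddase of EGF receptor ligands and the tissue plasminogen activator. MMP14, the membrane-anchored collagenase, was at 1232 and 845 CPM against 1207 to 1442 CPM and was not called (-0.39, adjusted p = 0.273). ADAM12, a transmembrane metalloprotease, was at 0.128 and 0.105 CPM against 3.69, 4.22 and 3.32 CPM (-4.96, SE 0.47, adjusted p = 0.00012). ADAM19 (-1.43) and ADAMTS15 (-1.49) were lower as well. Without Kir2.1 replicate 3 there were 4 higher calls. The calls of MMP3 and ADAMTS1 were lost without Kir2.1 replicate 3 or Kv1.5 replicate 3, the latter at 1.37, and that of ADAMTS1 also without Kir2.1 replicate 2. PLAT was lost without Kir2.1 replicate 3 or Kv1.5 replicate 2, and ADAMTS15 without any Kir2.1 library or Kv1.5 replicate 3.

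Structural matrix genes were more often lower, with 11 of 31 tested collagens and glycoproteins (35.5%) called lower and 4 (12.9%) higher. The shares of all tested genes were 7.99% and 8.79%, and the list's median was -0.69. LAMB1, the laminin beta 1 chain, was at 39.3 and 23.1 CPM in Kv1.5 and at 165, 190 and 177 CPM in Kir2.1 (-2.51, SE 0.25, adjusted p = 0.000129). COL1A2, a chain of type I collagen, was at 0.308 and 0.0790 CPM against 0.567 to 1.196 CPM (-2.32, adjusted p = 0.0317). THBS2, thrombospondin 2, had 2 counts in Kv1.5 and 48 in Kir2.1, a level lower by a factor of 17.79 (95% interval 4.664 to 151.1, counting error only). FN1, fibronectin, was at 181 and 132 CPM against 241, 487 and 552 CPM (-1.45, adjusted p = 0.02). LAMB3, a laminin chain of epithelial basement membranes, was higher, at 2041 and 1900 CPM against 974, 1056 and 784 CPM (1.07, SE 0.22, adjusted p = 0.00702). COL4A6, a chain of type IV collagen, was at 5.16 and 6.82 CPM against 0.642 to 1.89 CPM (2.35, adjusted p = 0.00765), and COL6A2 had a difference of 0.95. Without Kir2.1 replicate 2, Kir2.1 replicate 3 or Kv1.5 replicate 3 there were 7, 6 or 5 lower calls. The calls of FN1, COL6A2, COL1A2 and THBS2 were among those lost, FN1 and COL6A2 without Kir2.1 replicate 2 or 3, COL1A2 without Kir2.1 replicate 1 or 3, and FN1, COL1A2 and THBS2 without Kv1.5 replicate 3. COL1A2 was at -3.58 without Kv1.5 replicate 2.

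Of 15 tested integrins, 2 (13.3%) were called lower and 1 (6.67%) higher, against 7.99% and 8.79% of all tested genes. ITGB8, an activator of latent TGF-beta, was at 0.488 and 0.527 CPM in Kv1.5 against 2.101, 5.35 and 4.27 CPM in Kir2.1 (-2.94, SE 0.64, adjusted p = 0.0097). ITGB5, a partner of the alpha V chain, was at 148 and 87.6 CPM against 227 to 234 CPM (-0.96, adjusted p = 0.0155). ITGB2, the leukocyte beta 2 chain, was at 49.7 and 67.9 CPM against 25.8 to 28.97 CPM (1.12, adjusted p = 0.0373). The abundant ITGA3 (0.39) and ITGB1 (0.34) were not called. All 3 calls were lost without Kv1.5 replicate 3, with ITGB5 at -0.64, and ITGB2 was also lost without RFP replicate 2 or any Kir2.1 library.

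Cell junction and epithelial genes split, with 6 of 28 tested members (21.4%) called higher and 8 (28.6%) lower. Over all tested genes, 8.79% were called higher and 7.99% lower. CLDN1, claudin 1 of tight junctions, was at 84.5 and 39.8 CPM in Kv1.5 and at 4.69, 3.89 and 5.05 CPM in Kir2.1 (log2 difference 3.77, SE 0.36, adjusted p = 0.00012). CLDN7, another claudin, was at 56.9 and 94.6 CPM against 21.7 to 34.3 CPM (1.51, adjusted p = 0.0366). ESRP1 and ESRP2, splicing regulators of epithelial cells, were at 1.36 and 0.579 CPM against 0.0540 to 0.140 CPM (3.44, SE 0.66, adjusted p = 0.00536) and at 8.47 and 12.96 CPM against 3.84 to 4.72 CPM (1.34, adjusted p = 0.00805). EPCAM (1.11) and DSP (1.03), an epithelial adhesion molecule and the desmosomal protein desmoplakin, completed those called higher. Lower were keratins and other claudins. CLDN11 had 0 counts in Kv1.5 and 50 in Kir2.1. It was 12.35-fold lower by a floor of 3 counts over the Kv1.5 group, without the counting error of the 50. KRT8 was at 128 and 107 CPM against 253 to 344 CPM (-1.36, adjusted p = 0.00846), KRT19 at 169 and 189 CPM against 298 to 393 CPM (-0.96, adjusted p = 0.0132), and KRT80 (-2.02), KRT7 (-0.90), CLDN4 (-1.18) and CDH24 (-1.19) were also called. CDH11, a mesenchymal cadherin, was at 155 and 148 CPM against 116, 178 and 146 CPM and overlapped between the groups (0.04, SE 0.25, adjusted p = 0.928), whereas its RFP mean was 0.0342 CPM. SPINT2 was not called (-0.12, adjusted p = 0.771). Without Kv1.5 replicate 3 there were 5 lower calls, and CLDN7, ESRP2, EPCAM, DSP, KRT8, KRT7 and CDH24 lost theirs. CLDN7 was also lost without any Kir2.1 library, EPCAM without Kir2.1 replicate 1 or 2, DSP without Kir2.1 replicate 1 and KRT7 without Kir2.1 replicate 1 or 3. EPCAM was at 0.61 and DSP at 0.68 without Kv1.5 replicate 3.

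Markers of the cell line and of other cells were read as a check. All 6 mesenchymal markers of MDA-MB-231 were expressed, with a summed level of 4370 to 5600 CPM in Kv1.5 and 7030 to 8250 CPM in Kir2.1. CAV1, caveolin 1, was at 217 and 117 CPM against 455 to 634 CPM (-1.67, SE 0.27, adjusted p = 0.00228), VIM, vimentin, at 1992 and 1748 CPM against 2920 to 4005 CPM (-0.88, adjusted p = 0.0271), and MSN, moesin, was not called (-0.11). The call of VIM was lost without RFP replicate 2, Kir2.1 replicate 1 or 3, or Kv1.5 replicate 3. The 4 markers listed as low in MDA-MB-231 summed to 15.2 and 27.4 CPM in Kv1.5 replicates 2 and 3, above every Kir2.1 library. Only EPCAM of these passed the filter on low counts. It was at 14.99 and 27.2 CPM against 7.78 to 10.9 CPM and was called higher, as given above. The 12 epithelial markers summed to 605 to 652 CPM in Kv1.5 and 903 to 1150 CPM in Kir2.1. Of the 9 tested, 4 (44.4%) were called higher and 3 (33.3%) lower, against 8.79% and 7.99% of all tested genes. CDH1, E-cadherin, did not pass the filter. Markers of HEK293T, the cells that made the virus, summed to 1.26 to 2.03 CPM and 1.30 to 1.42 CPM, with LIN28B, NEFL and PAX2 at 0 counts. Fibroblast and endothelial markers summed to 6.08 to 6.50 CPM and 12.1 to 14.4 CPM, and 2 of the 4 tested (50.0%) were called lower. Leukocyte markers summed to 19.9 to 68.0 CPM and 111 to 143 CPM, of which LAPTM5 made up most, while CD3E and TYROBP were at 0 counts. Of the 3 leukocyte markers tested, 0 were called. The part of these differing marker levels in the results was not tested.

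Of 18 regulators of the mesenchymal transition, 3 (16.7%) were called higher and 3 (16.7%) lower, against 8.79% and 7.99% of all tested genes. INHBA, which forms activin A, was at 30.8 and 69.2 CPM in Kv1.5 and at 2.62, 2.95 and 3.60 CPM in Kir2.1 (log2 difference 4.03, SE 0.39, adjusted p = 0.00012). SKIL, a feedback repressor of SMAD signalling, was at 20.3 and 42.9 CPM against 9.41 to 12.5 CPM (1.54, adjusted p = 0.00807), and at 0.89 without Kv1.5 replicate 3, where its call was lost. TGFBR2, a receptor of TGF-beta, was also called higher (0.81, adjusted p = 0.0433). That call was lost when RFP replicate 2, any Kir2.1 library or Kv1.5 replicate 2 was left out. ENG, endoglin, had 0 counts in Kv1.5 and 19 in Kir2.1. With a floor of 3 counts for Kv1.5 it was 4.695-fold lower, without the counting error of the 19. The call of ENG was lost without Kv1.5 replicate 3. Its RFP mean was 48.0 CPM. AXL, a receptor kinase, was not called (-0.31, adjusted p = 0.375). Of 20 targets of YAP and TEAD, 3 were called higher and 1 lower. ANKRD1, a nuclear target of the pathway, was at 1241 and 1466 CPM against 436 to 607 CPM (1.45, SE 0.25, adjusted p = 0.00285). F3, tissue factor, had a difference of 1.12 and PTPN14, which binds YAP, of -1.04. There was 1 higher call without Kv1.5 replicate 3. F3 was lost without RFP replicate 2 or any 1 of the 5 libraries, and PTPN14 without Kir2.1 replicate 2 or 3 or either Kv1.5 library.

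Of 30 interferon stimulated genes 1 (3.33%) was called higher and 0 lower, against 8.79% and 7.99% of all tested genes. It was MX1, an antiviral GTPase, at 21.8 and 19.3 CPM against 9.86 to 10.9 CPM (0.98, adjusted p = 0.0138), a call lost without Kir2.1 replicate 2 or 3. The median was 0.07, and the abundant IFIT3 (-0.08) and IFITM3 (0.18) were not called. Of 17 genes of MHC class I presentation 2 (11.8%) were called lower and 0 higher. NLRC5, the transactivator of the class, was at 16.7 and 8.64 CPM against 29.8 to 33.7 CPM (-1.31, adjusted p = 0.00841), and PSMB9, an immunoproteasome subunit, at 20.3 and 14.04 CPM against 29.1 to 47.6 CPM (-1.10, adjusted p = 0.045). CANX was not called (0.59). There were 4 lower calls without Kv1.5 replicate 2, and without RFP replicate 2, Kv1.5 replicate 3 or any Kir2.1 library there was 1, with PSMB9 lost.

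Of 42 potassium channel genes listed, 22 passed the filter, 2 (9.09%) were called higher and 2 (9.09%) lower, shares near the 8.79% and 7.99% of all tested genes. KCNN4, a calcium-activated potassium channel, was at 27.1 and 24.4 CPM in Kv1.5 and at 78.8, 56.7 and 60.6 CPM in Kir2.1 (-1.34, SE 0.22, adjusted p = 0.00251), with an RFP mean of 29.5 CPM. KCNJ12, an inward rectifier related to KCNJ2, had 11 counts in Kv1.5, at 0.231 and 0.0527 CPM, and 0 in Kir2.1. With a floor of 3 counts for Kir2.1 it was 4.946-fold higher, without the counting error of the 11. KCNE3, an accessory subunit, had 1 count in Kv1.5 and 21 in Kir2.1 (fitted log2 fold change -3.66, or -5.93 without Kv1.5 replicate 3), lower by a factor of 15.57 (95% interval 2.504 to 643.8, counting error only). The most abundant members were KCNN4 and KCNQ5, and KCNQ5 was not called (0.32). The count of higher calls was 4 without Kv1.5 replicate 2, 0 by edgeR without Kir2.1 replicate 1 or 2, and 1 without Kir2.1 replicate 3 or RFP replicate 1 or 2. The call of KCNJ12 was lost without any Kir2.1 library or Kv1.5 replicate 2, and KCNE3 without any of the 5 libraries. Among 29 tested pumps, exchangers and other cation channels 3 (10.3%) were called higher and 1 (3.45%) lower. ATP2B1, a plasma membrane calcium pump, was at 1016 and 731 CPM against 210 to 328 CPM (1.74, SE 0.25, adjusted p = 0.00117). ATP1B1, the beta subunit of the sodium pump, was at 541 and 516 CPM against 179 to 242 CPM (1.36, SE 0.19, adjusted p = 0.00105). SCN9A, a sodium channel, was at 5.44 and 5.37 CPM against 0.873 to 1.48 CPM (2.18, adjusted p = 0.00341). ORAI2, a calcium entry channel, was at 33.6 and 33.3 CPM against 47.8 to 54.5 CPM (-0.61, adjusted p = 0.0416), and its call did not hold without RFP replicate 1 or 2, Kir2.1 replicate 2 or 3 or either Kv1.5 library.

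Called genes were unevenly spread over chromosomes. On chromosome 18, 55 of 256 tested genes (21.5%) were called higher and 9 (3.52%) lower, and on chromosome 21, 34 of 164 (20.7%) were called higher and 7 (4.27%) lower. On chromosome 7 the direction was opposite, with 47 of 806 genes (5.83%) called higher and 127 (15.8%) lower, and chromosome 11 had 6.25% higher and 12.3% lower. Over all tested genes the shares were 8.79% and 7.99%. The median log2 fold change was 0.31 on chromosome 18, 0.25 on chromosome 21 and -0.24 on chromosome 7. Both Kv1.5 libraries showed this: over genes with a mean level of 5 CPM or more, the medians of replicates 2 and 3 against the Kir2.1 mean were 0.28 and 0.26 on chromosome 18, 0.19 and 0.21 on chromosome 21, and -0.29 and -0.24 on chromosome 7. Single Kir2.1 libraries had medians between -0.12 and 0.054 on these 3 chromosomes, and RFP libraries had medians of -0.29 to -0.19 on chromosome 18 and of -0.21 to -0.19 on chromosome 7 against the same Kir2.1 mean. The cause of this spread was not tested.

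**Figure D4:**
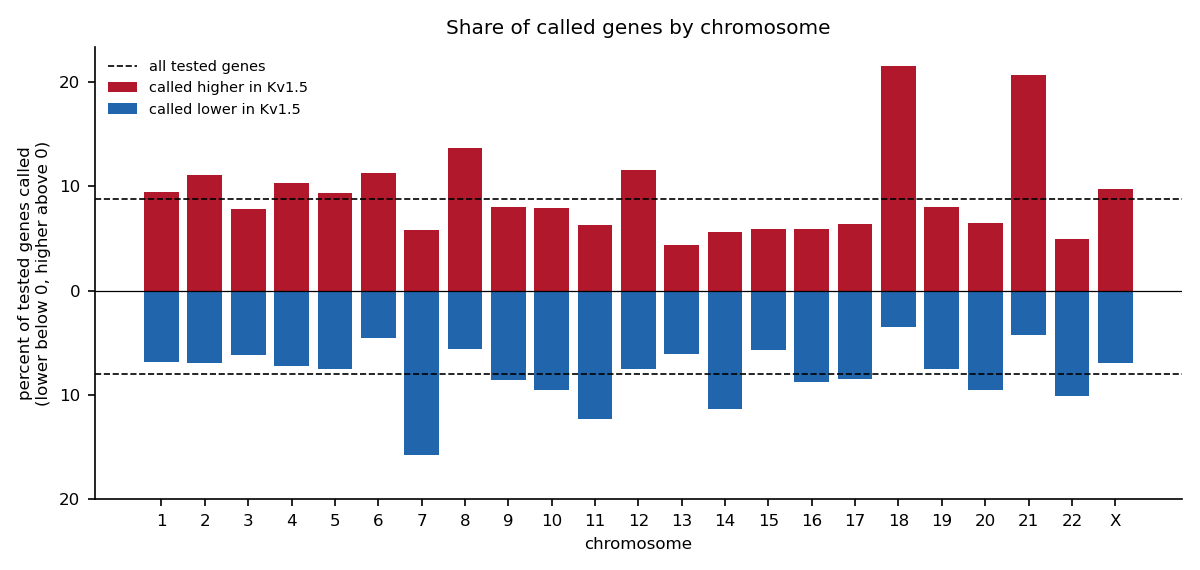
Bars give the percent of the tested genes of each chromosome that were called higher (red, above 0) or lower (blue, below 0) in Kv1.5, with dashed lines at the shares over all tested genes, 8.79% and 7.99%. Chromosomes 18 and 21 have the highest shares called higher, 21.5% and 20.7%, and chromosome 7 the highest share called lower, 15.8%.

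The spread between the 2 Kv1.5 libraries bears on all of these values. Of 10682 genes whose mean reached 5 CPM, 930 (8.71%) differed by more than 2-fold between Kv1.5 replicates 2 and 3, on CPM + 0.5, 592 of them lower in replicate 3. The highest of 3 Kir2.1 libraries was more than 2-fold above the lowest for 353 (3.30%). Among the 1953 called genes of that level the counts were 207 (10.6%) and 53 (2.71%). The test fitted 1 spread for all groups, so p-values may understate the spread between Kv1.5 cultures. Kv1.5 replicate 3 had the lower mitosis level and the higher MMP1, MYC, HSPA5 and ribosomal protein levels, and replicate 2 the higher IL6 and CXCL1 levels. Which of them is nearer to other cultures of the line cannot be told from these libraries. In bulk RNA, fewer cells in a state and less RNA per cell cannot be told apart.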

How the data were processed

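Poly(A) RNA was sequenced as single-end reads from a stranded mRNA kit, per the labels' protocols. The authors deposited raw counts per gene for 60715 Ensembl genes, whole numbers that were not normalized. The submitters' processing notes name GRCh38, STAR, Trimmomatic, FastQC and edgeR. Which tool counted reads, and with which strand setting and annotation, no source used here states. Thus antisense and overlapping genes cannot be told apart. Symbols came from a gene name table, with GENCODE 29 for 290 IDs, and positions from GENCODE 29. Promoters came from RefSeq (GRCh38.p14).

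These counts were fitted with edgeR 4.0.16 (R 4.3.3). The filterByExpr filter by group kept 16687 genes, TMM factors scaled libraries, and a robust quasi-likelihood fit held all 8 libraries, which share 1 estimate of spread with 5 residual degrees of freedom. KCNJ2, set by the construct, was set aside after adjustment. P-values were adjusted by Benjamini-Hochberg over all genes fitted and called under 0.05. The SE was derived from the F statistic, and fitted log2 fold changes use a prior count of 0.125. Totals per library give the depth, so genes under 1 CPM rest on few counts. Named genes were the channel genes, the 10 largest rises and falls of called genes that reached a mean of 5 CPM and did not overlap, up to 4 called members with the largest change and up to 2 most abundant members of each list, and CDH11, DUSP6 and MKI67. Others were picked after their values were seen. The members, gene lists and tests were chosen with earlier results of these data known. Motif letters were searched as plain text. Alternatives were upper quartile and RLE scaling, no filter and a filter at 1 CPM, limma voom (3.58.1), DESeq2 1.42.0, glmTreat, the 5 libraries alone, a replicate block, a threshold of 0.01, scaling without the channel genes and leaving out each library. The test was also run on simulated counts drawn from its own fitted spread, equal in all groups. That run could not show how the test fares with the wider Kv1.5 spread. The design assumed 3 Kv1.5 libraries and was applied to the 2 in the table. Some members of the lists are counted but not reported here by name.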

Additional observations from a re-analysis of the deposited data

How the results depend on the processing

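The 2800 called genes, 1912 of them over 2-fold, numbered 1383 to 3860 and 1247 to 2978 when a library was left out. An adjusted p under 0.01 gave 969 and 931. RLE and upper quartile scaling, both other filters, DESeq2, limma voom, the 5 libraries alone, scaling without the channel genes and glmTreat stayed within 1.5 times of both counts, and in none of these alternatives or left-out fits did a called gene change sign. Over 174 named genes, 288 combinations of gene and alternative lost a call and 13 gained one. The genes whose direction turned were not called. When a library was left out, CDH11 ran from -0.10 to 0.21, RPS4X from -0.32 to 0.014, ENO1 from -0.063 to 0.078, IFIT3 from -0.55 to 0.27, PLK2 from -0.025 to 0.45, SPINT2 from -0.43 to 0.14, IFITM3 from -0.052 to 0.41, KCNQ5 from -0.20 to 0.70 and MSN from -0.27 to 0.023 (log2). The cause was not tested.

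With the replicate number as a block, 2728 genes were called, 1810 over 2-fold, and 2372 of the 2800 were shared. CDH11 was then at -0.0947, and 19 cholesterol genes and 7 histone genes were called. TOP2A and H1-2 gained a call. Named genes that lost their call under the block were MMP3, ADAMTS1, EGR3, AREG, BIRC5, CCNA2, COL1A2, ITGB2, RPL31, MT-CO3, TGFBR2 and PSMB9. Deviations of same-numbered libraries correlated across genes at -0.012 and 0.096 between Kir2.1 and Kv1.5, and at 0.181, -0.094 and 0.157 between RFP and Kir2.1 and 0.033 and -0.111 between RFP and Kv1.5. As not every pair passed 0.1, the numbers were not taken to pair the samples. With 2 Kv1.5 libraries, differences near their spread could not be resolved, and genes under 1 CPM rest on few counts.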

Other observations

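Some genes were near 0 in 1 group. Among called genes, 109 had at most 3 counts over a group, 78 of them in Kv1.5 and 31 in Kir2.1, and 14 of these had a mean of at least 1 CPM in the other group, 12 lower and 2 higher in Kv1.5. They were chosen after their values were seen. TNS1, which encodes the adhesion protein tensin 1, had 0 counts in Kv1.5 and was at 6.21, 4.35 and 6.19 CPM in Kir2.1. It was 142.1-fold lower by a floor of 3 counts over the Kv1.5 group, without the counting error of Kir2.1. Its RFP mean was 1.31 CPM. NLRP2, of the NOD-like receptor family, had 3 counts in Kv1.5 and was at 6.89, 6.73 and 6.50 CPM in Kir2.1, lower by a factor of 171.7 (95% interval 58.52 to 834.8, counting error only), with an RFP mean of 19.0 CPM. LRCH2 was at 3.90 and 3.19 CPM in Kv1.5 with 1 count in Kir2.1, higher by a factor of 368.3 (65.55 to 14600). INHBE, an activin subunit, was at 1.41 and 0.843 CPM in Kv1.5 with 3 counts in Kir2.1. The calls of these 4 genes were kept in every alternative that tested them.

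Long noncoding RNAs were more often called higher than lower. Of 860 lincRNA genes 113 were called higher and 48 lower, and of 939 antisense genes 67 and 22. The 13227 protein-coding genes gave 1203 and 1214. Over all tested genes, 8.79% were called higher and 7.99% lower. The share called higher lay above this for lincRNA genes but below it for antisense genes. Both classes had a smaller share called lower. The strand setting of the counting step was not given, so antisense genes may hold reads of their partners.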
